A study of Mus musculus with 78 samples.

Results

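Genes of brown and white fat were measured in mouse lung, 8 of the 18820 genes that the arrays name. Ucp1, Cidea, Elovl3 and Ppargc1a are called brown fat genes here, and Adipoq, Plin1, Cidec and Lep white fat genes. These names are labels, since Adipoq marks all adipocytes, brown ones included. A member was taken as the probe set whose only gene symbol is that gene. Ppargc1a has 2 such probe sets, and the probe set with the higher mean over all 78 arrays was used, so 8 of 9 probe sets enter. The question these genes address is how much adipose tissue was collected with each lung, and whether that amount varied with sleep.

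The lungs came from male C57BL/6J mice of about 10 weeks, fed only in the dark phase, with 1 array per mouse. The baseline group of 9 mice was killed at lights on. Groups of 9, 9, 9 and 8 mice were then kept awake by gentle handling for 3, 6, 9 and 12 h. Groups of 9, 7, 9 and 9 mice were left undisturbed, free to sleep, for the same hours. The study states that undisturbed mice were active for part of that time. Hours of sleep below are therefore hours of this opportunity and not hours slept. All groups share strain, sex and feeding schedule, and the sources used here do not say how tissue around the lung was removed.

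Brown adipocytes burn fat to make heat, and the protein that lets them do so, uncoupling protein 1, is encoded by Ucp1. White adipocytes store triglyceride in a droplet coated by perilipin 1, the product of Plin1, and secrete the hormones adiponectin (Adipoq) and leptin (Lep). Cidea and Cidec encode droplet-fusing proteins, Elovl3 an enzyme that lengthens fatty acid chains and Ppargc1a a coactivator of mitochondrial genes. Brown and white fat both lie in the mediastinum beside the airways and great vessels. In bulk RNA, fewer cells of a type and less RNA per cell cannot be told apart.

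RefSeq promoters (build GRCm38.p6, 250 bases before to 50 bases after the start site) were used for 6 of the 8 members. Those of Ucp1, Adipoq and Plin1 are shown because Ucp1 marks brown fat, Adipoq marks all adipocytes and Plin1 followed both closely from mouse to mouse. Capitals mark matches, on either strand, to AGGTCA, the core of nuclear receptor elements, and TGACG, the core of the cyclic AMP response element. They also mark the CCAAT box, searched by these letters, and the TATA box, searched as TATAAA and, in a separate search, as TATATA. The Ucp1 promoter is at chr8:83290098-83290397 on the plus strand, the Adipoq promoter at chr16:23146286-23146585 on the plus strand and the Plin1 promoter at chr7:79732727-79733026 on the minus strand.
Ucp1: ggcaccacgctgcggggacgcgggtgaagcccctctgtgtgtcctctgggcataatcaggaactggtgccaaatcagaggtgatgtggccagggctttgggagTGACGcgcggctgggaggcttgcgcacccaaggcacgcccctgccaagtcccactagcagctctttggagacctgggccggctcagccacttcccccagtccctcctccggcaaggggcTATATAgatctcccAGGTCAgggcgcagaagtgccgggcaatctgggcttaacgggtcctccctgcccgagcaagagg
Adipoq: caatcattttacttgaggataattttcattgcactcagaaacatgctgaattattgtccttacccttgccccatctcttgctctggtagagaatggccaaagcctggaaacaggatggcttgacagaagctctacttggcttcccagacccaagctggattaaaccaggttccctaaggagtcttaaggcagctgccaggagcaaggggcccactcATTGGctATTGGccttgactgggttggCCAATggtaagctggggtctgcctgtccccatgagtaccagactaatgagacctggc
Plin1: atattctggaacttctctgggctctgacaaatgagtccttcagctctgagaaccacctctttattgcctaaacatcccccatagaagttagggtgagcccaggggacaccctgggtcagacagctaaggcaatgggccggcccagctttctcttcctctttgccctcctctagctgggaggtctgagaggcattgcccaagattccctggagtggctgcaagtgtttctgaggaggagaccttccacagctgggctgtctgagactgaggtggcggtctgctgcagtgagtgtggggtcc

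The Ucp1 window held 1 AGGTCA, 1 TGACG and 1 TATATA, the last of them beginning 28 bases before the start site. The Adipoq window held 3 CCAAT matches, the nearest beginning 7 bases before the start site, and the Plin1 window held none of the 5 motifs. No matches overlapped. Of 32851 promoters of this length, 16.3% held AGGTCA, 20.8% TGACG, 37.4% CCAAT, 13.6% TATAAA and 5.67% TATATA. These are matches of letters and not binding sites.

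The values are log2 intensities, which ran from 2.27 to 13.85 over 35556 probe sets, with array medians between 6.45 and 6.78. The precision rests on how many mice a group holds, since arrays carry no count of reads, and a value near the low end of a gene is not known to lie above background. The 8 lung epithelium genes were measured at 10.72 or above on every array, with Sftpc, the surfactant protein C gene of alveolar type 2 cells, between 13.08 and 13.37. The widest range was that of the club cell gene Scgb1a1, from 11.39 to 13.19 (pooled SD 0.293). Of the 78 arrays, 16 were marked by number, being array 81 and 15 others. The condition labels were laid in order along the numbers, with no place for 9 and places for the absent 37 and 42. The 15 are arrays whose number then fell on another condition. As labelled, each is the first or last of a block of numbers from the same condition. Whether labels were shifted was not tested. The array numbers fall into 4 runs. Runs 1 and 2 hold only the 9 and 12 h groups, and runs 3 and 4 only the baseline, 3 and 6 h groups, so run and early or late hour cannot be told apart. Conditions were used as labelled, and values without the 16 arrays are given where a call changed. Arrays 79 and 80, from mice that slept 6 h, had the highest levels of liver transcripts. The mean of 8 liver genes lay 4.95 and 4.21 log2 units above its 78-array mean there, and at most 3.99 above it on every other array. The 3.99 is that of array 60 (sleep 3 h), close to array 80, and array 60 was kept where arrays 79 and 80 were left out.

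Ucp1 varied 256-fold among the 78 lungs, from 4.19 in array 41 (deprived 3 h) to 12.19 in array 76 (sleep 3 h). Its level was under 6 in 18 mice and over 10 in 19 mice, and both extremes occurred in the sleeping and in the deprived mice. At baseline Ucp1 ran from 5.01 through a median of 8.78 to 9.88.
In sleeping mice Ucp1 ran from 5.16 (median 8.95) to 12.19 at 3 h, from 4.80 (median 10.91) to 11.80 at 6 h, from 4.88 (median 7.41) to 10.56 at 9 h and from 4.26 (median 5.62) to 11.37 at 12 h. In deprived mice it ran from 4.19 (median 6.22) to 11.39 at 3 h, from 4.81 (median 7.83) to 11.31 at 6 h, from 4.36 (median 9.12) to 9.65 at 9 h and from 5.04 (median 9.66) to 10.95 at 12 h. The groups overlapped throughout, and the span within each group was at least 29.1-fold. The order of group means ran from sleep 6 h (9.59 ± 2.58, SD, n = 7) down to sleep 12 h (6.77 ± 2.71, SD, n = 9).

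Cidea followed with a 65.2-fold range, from 5.04 in array 34 to 11.06 in array 76. Its group means lay between 6.56 ± 0.78 (SD, n = 9) after 9 h of sleep and 8.18 ± 1.79 (SD, n = 7) after 6 h of sleep. The median was 7.23 at baseline, 5.99 after 12 h of sleep and 5.86 after 3 h of deprivation, and every pair of groups overlapped.

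Elovl3 had a 96.3-fold range, from 4.04 to 10.63, and the most uneven group means. Its levels were highest after 6 h of sleep, where they ran from 6.06 through a median of 8.20 to 10.60. After 3 h of sleep they ran from 4.74 (median 8.05) to 10.63, whereas after 3 h of deprivation they ran from 4.16 (median 4.54) to 8.69. After 12 h the order was the other way, with a median of 4.35 (4.04 to 8.15) in sleeping mice and of 7.02 (4.39 to 8.47) in deprived mice. The sleeping and deprived mice overlapped at each of these hours.

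Ppargc1a varied least of the brown fat genes, 3.78-fold from 7.81 to 9.73. Most mice lay close together and a few lay far above. After 3 h of sleep the median was 8.30, and arrays 76, 59 and 61 stood at 9.73, 9.10 and 9.06. After 9 h of sleep all 9 mice lay between 7.81 and 8.12, below all 7 mice that slept 6 h (8.19 to 8.69). No other pair of groups of any member lay apart in this way, and how often pairs do so over all probe sets was not counted. The difference in means of 0.36 between sleep 6 h and sleep 9 h was not called (limma adjusted p = 0.128).

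**Figure D1:**
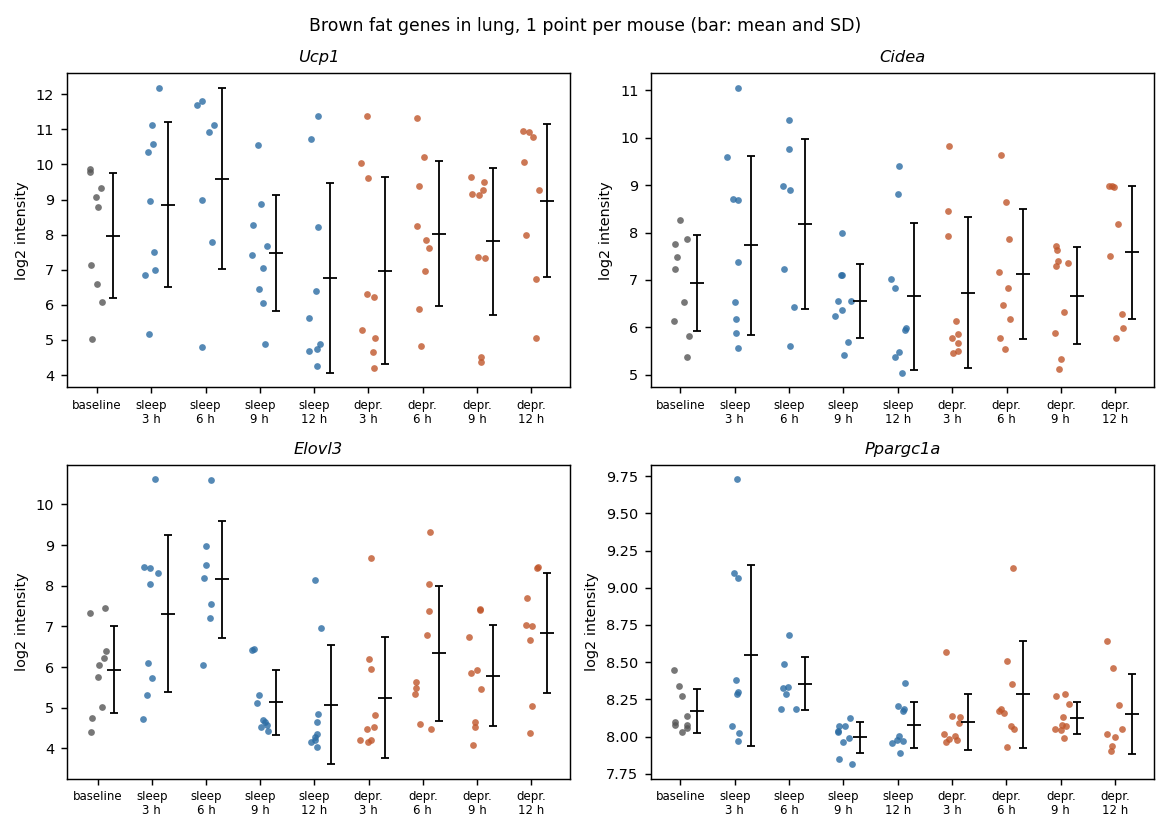
Levels of Ucp1, Cidea, Elovl3 and Ppargc1a in the 9 groups as log2 intensity (vertical axis, a log scale), with 1 point per mouse and bars for the mean and SD of 7 to 9 mice. The points of a group are spread over much of the range of Ucp1 (4.19 to 12.19), and single mice stand above the others for Ppargc1a.

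Adipoq, the adiponectin gene, ranged 11.1-fold, from 6.73 in array 2 to 10.20 in array 66. Its group means lay between 7.95 ± 0.64 (SD, n = 9) after 9 h of deprivation and 9.01 ± 0.92 (SD, n = 7) after 6 h of sleep. Baseline mice ran from 7.37 through a median of 8.54 to 9.22, and mice that slept 3 h from 7.61 (median 8.87) to 10.13. Every pair of groups overlapped.

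Plin1 ranged 14.7-fold, from 7.31 to 11.19, and its extremes were arrays 41 and 76, the same mice as for Ucp1. Its group means ran from 8.31 ± 0.41 (SD, n = 9) after 9 h of sleep to 9.42 ± 0.99 (SD, n = 7) after 6 h of sleep. Cidec ranged 4.87-fold, from 8.52 to 10.81, with group means between 9.22 and 9.73. For both genes every pair of groups overlapped.

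Lep was measured near the low end of the arrays, from 4.24 to 6.69, a 5.49-fold range. Its median was 5.19 at baseline (4.60 to 5.97), 4.92 after 3 h of sleep (4.41 to 5.86) and 4.47 after 3 h of deprivation (4.29 to 4.95). After 12 h the median was 5.10 (4.56 to 5.61) in sleeping mice and 4.58 (4.41 to 5.24) in deprived mice. Deprived mice were on the low side at these hours. At 6 h the medians were 4.76 with sleep and 4.6 with deprivation, and at 9 h they were 4.59 and 4.74. The groups overlapped.

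**Figure D2:**
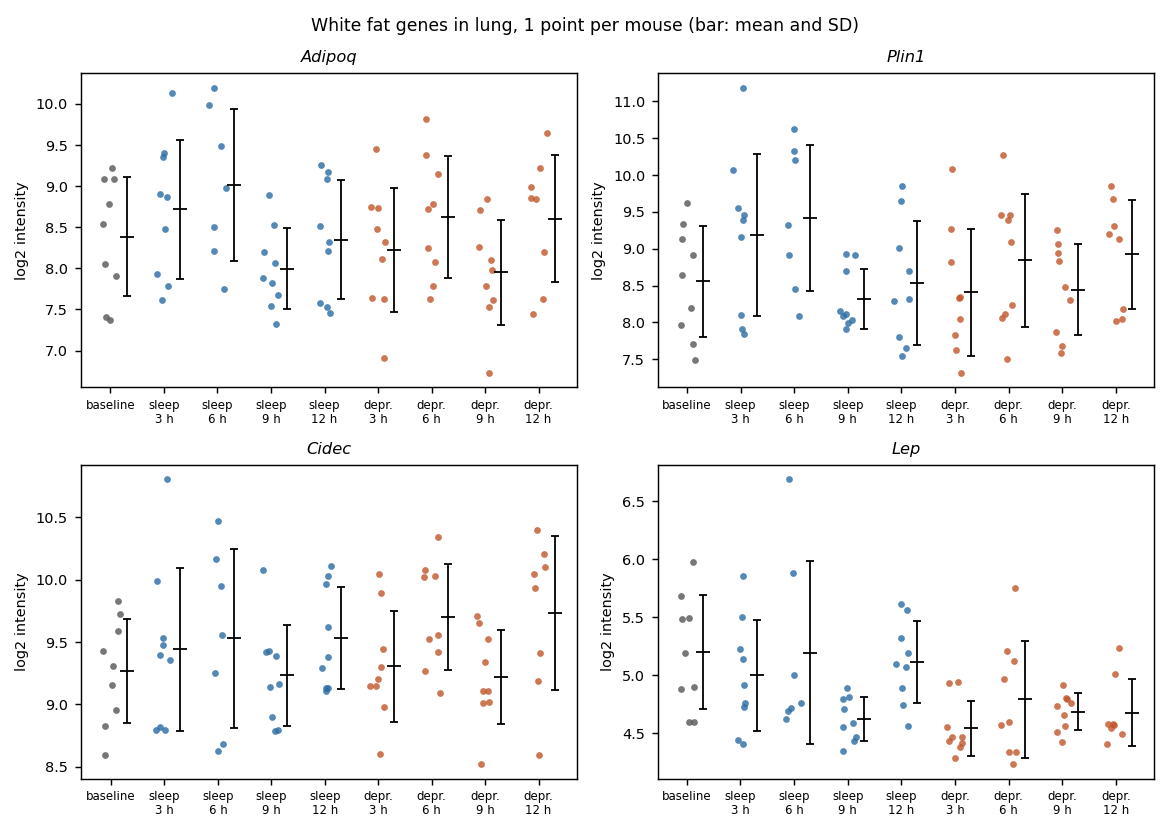
Levels of Adipoq, Plin1, Cidec and Lep in the 9 groups as log2 intensity (vertical axis, a log scale), with 1 point per mouse and bars for the mean and SD of 7 to 9 mice. The groups overlap for each gene, and Lep reaches 6.69 in 1 mouse that slept 6 h.

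The spread between mice of a group was large for these genes beside that of other genes. The SD pooled over the 9 groups was 2.25 for Ucp1, rank 6 of 18820 genes, against a median of 0.137 over all genes. It was 1.43 for Elovl3 (rank 57), 1.41 for Cidea (rank 62), 0.821 for Plin1 (rank 224) and 0.738 for Adipoq (rank 275). Cidec (0.502), Lep (0.418) and Ppargc1a (0.283) ranked 525, 730 and 1414, so that at most 7.51% of genes had a larger spread than any of the 8. With the median absolute deviation in place of the SD, Ppargc1a ranked 6389, with 33.9% of genes above it. The share of the variance that lay between groups was 13.4% to 17.4% for Ucp1, Cidea, Adipoq, Plin1 and Cidec, and 26.5%, 27.6% and 34.2% for Ppargc1a, Lep and Elovl3, against a median of 21.4% over all genes. No test was made of these ranks.

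Sleep-deprived and sleeping mice were compared first over all hours (35 against 34 mice). None of the 8 members passed in limma at an adjusted p of 0.01, where 5.59% of all probe sets did. Lep alone had an unadjusted p under 0.05, where 26.1% of probe sets did. Sleeping mice averaged 4.97 ± 0.51 (SD, n = 34) for Lep and deprived mice 4.68 ± 0.32 (SD, n = 35), so that deprived minus sleeping was -0.30 log2 units (SE 0.10, limma adjusted p = 0.0409). Without the 16 arrays, Lep passed (-0.35, limma adjusted p = 0.00459).

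The mean of Ucp1 was 8.09 ± 2.49 (SD, n = 34) with sleep and 7.91 ± 2.28 (SD, n = 35) with deprivation, and the difference of -0.17 had a 95% confidence interval from -1.30 to 0.95. For Adipoq the difference was -0.15 (95% interval -0.52 to 0.22), for Plin1 -0.18 (-0.59 to 0.23) and for Cidec 0.06 (-0.19 to 0.30). The median difference over the 8 members was -0.18, and -0.0003857 over all genes. The interval for Ucp1 reaches beyond 1 log2 unit, and the p-values do not show that the groups are alike.

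At single hours no member was called. The counts of members called in limma were 0 of 8 at 3 h (6.11% of all probe sets called), at 6 h (0.0591%), at 9 h (2.56%) and at 12 h (0.0816%). At an unadjusted p under 0.05 they were 4, 1, 0 and 3 of 8, where 25.6%, 10.7%, 24.3% and 7.46% of probe sets passed. All 8 members had lower means in deprived mice at 3 h, with a median difference of -0.64 (0.0069 over all genes). At 12 h 7 of 8 had higher means, with a median of 0.32 (-0.0070 over all genes). The members rose and fell together from mouse to mouse, as given below, so these are not 8 separate observations. Counts within the lists that follow were not tested either. Genes of several other tissues lay the same way. At 3 h the means were lower in deprived mice for all 11 cardiac muscle genes (median difference -0.37), 9 of 10 skeletal muscle genes (-1.14), all 8 liver genes (-2.08), all 5 oesophagus genes (-1.05), all 6 lymph node genes (-0.67) and all 4 mesothelium genes (-0.20). At 12 h they were higher for all 8 liver (0.68), 5 oesophagus (1.10), 7 thymus (0.34) and 4 mesothelium genes (0.18), for 9 of 10 skeletal muscle genes (0.26) and 9 of 11 cardiac muscle genes (0.05), but for 1 of 6 lymph node genes (-0.42). Of these genes, 3 lymph node genes were called at 3 h and none at 12 h. The part of these tissues in the values of the fat genes was not tested.

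The members that came nearest to the threshold were Ppargc1a and Elovl3 at 3 h. Ppargc1a averaged 8.55 ± 0.61 (SD, n = 9) with sleep and 8.10 ± 0.19 (SD, n = 9) with deprivation, and differed by -0.45 (SE 0.13, limma adjusted p = 0.0145). Elovl3 averaged 7.31 ± 1.93 (SD, n = 9) with sleep and 5.25 ± 1.495 (SD, n = 9) with deprivation, and differed by -2.06 (SE 0.66, limma adjusted p = 0.0272). Elovl3 passed without array 68 (-2.49, limma adjusted p = 0.00533) and had an adjusted p of 0.102 in limma without array 76. Ppargc1a passed in limma without any 1 of arrays 57, 58, 68, 74 and 75, and had an adjusted p of 0.0868 without array 76.

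At 12 h Ucp1 averaged 6.77 ± 2.71 (SD, n = 9) with sleep and 8.97 ± 2.19 (SD, n = 8) with deprivation, and differed by 2.20 (95% interval 0.06 to 4.34, limma adjusted p = 0.642). Elovl3 differed by 1.77 there (95% interval 0.41 to 3.13, limma adjusted p = 0.404), whereas Lep differed by -0.44 (limma adjusted p = 0.574). Whether this difference itself varied from hour to hour was tested with limma's F test, and none of the 8 members passed (0.0562% of all probe sets did). Ucp1, Elovl3 and Ppargc1a had an unadjusted p under 0.05, 3 of 8 where 16.8% of probe sets did. Elovl3 was nearest (limma adjusted p = 0.0425), and without arrays 79 and 80 its adjusted p in limma was 0.0635.

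**Figure D3:**
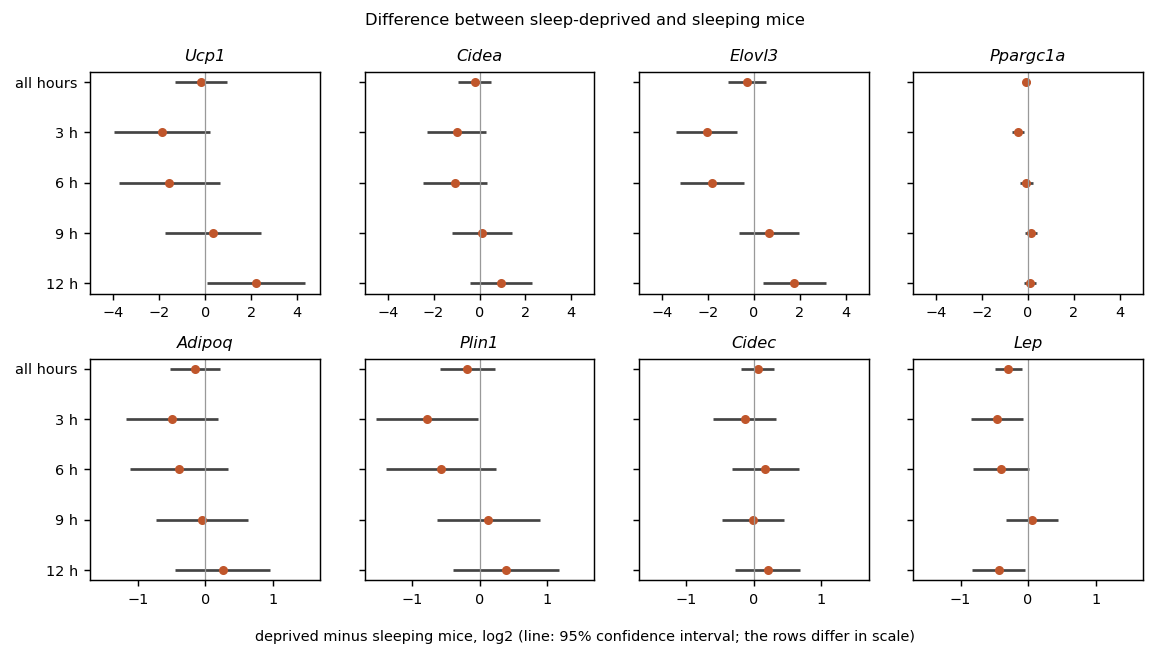
Difference between sleep-deprived and sleeping mice for each gene, on the log2 scale (horizontal axis, wider in the upper row than in the lower), over all hours and at 3, 6, 9 and 12 h, with lines for the 95% confidence interval. The differences of Ucp1 and Elovl3 lie below 0 at 3 and 6 h and above 0 at 12 h, with intervals that span several log2 units.

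Each hour was covered by 2 runs of array numbers, and the differences were compared within them, as means with no test. For Ucp1 at 3 h deprived minus sleeping was -2.49 in run 3 (5 and 5 mice) and -1.14 in run 4 (4 and 4). At 6 h it was -2.72 in run 3 (5 and 5) and 1.54 in run 4, where the 2 sleeping mice are arrays 79 and 80. At 12 h it was -0.0040 in run 1 (4 deprived and 5 sleeping mice) and 4.79 in run 2 (4 and 4), so the higher Ucp1 of deprived mice at 12 h lies in 1 of the 2 runs.

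Elovl3 had the same sign in both runs at each hour, -2.475 and -1.54 at 3 h, -1.08 and -3.56 at 6 h, and 0.85 and 2.87 at 12 h. The -3.56 rests on 2 sleeping mice, arrays 79 and 80, the arrays highest in liver transcripts, with Elovl3 at 10.60 and 8.98. In that run at 6 h every other member was higher in deprived mice. Ppargc1a differed by -0.41 and -0.50 in the 2 runs at 3 h. Lep was lower in deprived mice in both runs at 3 h (-0.32 and -0.62) and at 12 h (-0.41 and -0.44). At 6 h Lep differed by -0.69 in run 3 and 0.22 in run 4, and at 9 h by 0.10 in run 1 and 0.02 in run 2. Over both hours of a run, no member passed in limma, with a smallest adjusted p of 0.0489 for Elovl3 in run 2, where it was 2.02 higher in deprived mice. What the runs stand for is not given in the labels.

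Over all 9 groups, Elovl3 (limma F test adjusted p = 0.000977) and Lep (0.0095) passed, 2 of 8 members where 25.1% of all probe sets did. Elovl3 passed whichever 1 of the 78 mice was left out, and Lep in 30 of the 78 fits (largest adjusted p in limma 0.017, without array 40). Ppargc1a had an adjusted p of 0.0135 in limma. Of the 36 pairs of groups, 3 were called for Elovl3, 2 for Ppargc1a and none for the other 6 members, where 3.48% of pairs and probe sets were called. No 2 groups that follow each other in the order of means were called in any member. Pairs of an early and a late group also compare different runs, and with the runs as a block these differences cannot be estimated.

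For Elovl3 the 3 pairs set sleep 6 h above deprived 3 h by 2.91 (SE 0.71, limma adjusted p = 0.00488), above sleep 9 h by 3.03 (0.00899) and above sleep 12 h by 3.08 (0.00276). The first of these pairs lies in runs 3 and 4, and the groups of the others share no run. Array 79, with the highest liver transcripts, had the highest Elovl3 of its group (10.60) at a Ucp1 of 4.80, and array 80 had 8.98 at a Ucp1 of 7.80. Without arrays 79 and 80 the 3 differences, now over mice of run 3 only for sleep 6 h, were 2.26, 2.37 and 2.43, and none was called in limma (adjusted p = 0.106, 0.101 and 0.0666). With the liver list as a covariate none was called either (limma adjusted p = 0.04, 0.0163 and 0.0253). Without the 16 arrays the pair with deprived 3 h was called in limma (adjusted p = 0.00994) and those with sleep 9 h and sleep 12 h were not (0.0118 and 0.0138). For the F test over 9 groups the adjusted p of Elovl3 in limma was 0.00796 without arrays 79 and 80 and 0.0124 with the liver covariate.

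For Ppargc1a the 2 pairs set sleep 3 h above sleep 9 h by 0.55 (SE 0.13, limma adjusted p = 0.00464) and above deprived 9 h by 0.42 (SE 0.13, 0.00923). Neither was called in limma without array 76 (adjusted p = 0.0252 and 0.0665), and without the 16 arrays the second was not (0.0305). Sleep 3 h lies in runs 3 and 4 and both 9 h groups in runs 1 and 2. For Lep the highest mean was that of baseline mice (5.20 ± 0.49, SD, n = 9) and the lowest that of deprived 3 h (4.54 ± 0.24, SD, n = 9), and the pair was not called in limma (adjusted p = 0.0371).

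The study also asked whether spread between mice changes over the hours of sleep. Over baseline and the 4 sleep groups, none of the 8 members passed both variance tests, as 0.112% of all probe sets did. Ppargc1a alone passed Bartlett's test (adjusted p = 5.10e-05, where 4.01% of probe sets passed), with an SD of 0.609 at 3 h, 0.104 at 9 h and 0.147 at baseline. Its Brown-Forsythe p was 0.017, and it passed both tests when any 1 of arrays 60, 75, 77 and 78, all mice that slept 3 h, was left out. For Ucp1 the SD ran from 1.66 at 9 h to 2.71 at 12 h of sleep (Bartlett adjusted p = 0.751).

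The members rose and fell together from mouse to mouse. Deviations from the 9 group means were correlated over 78 mice, and all 28 pairs of members had an adjusted permutation p under 0.05 (100000 permutations within groups, two-sided, Benjamini-Hochberg over 28 pairs). Ucp1 and Cidea had r = 0.96 (rho = 0.96, permutation p = 1e-05, the smallest these permutations can give). Ucp1 and Plin1 had r = 0.85 (rho = 0.84), and Ucp1 and Adipoq r = 0.80 (rho = 0.79), both with the same permutation p.

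Among the genes labelled white fat, the closest pair was Adipoq with Plin1 (r = 0.95, rho = 0.95). Adipoq with Cidec followed (r = 0.92, rho = 0.93), at the same smallest permutation p. Lep was less close to Adipoq (r = 0.71, rho = 0.72). Plin1 was closer to Cidea (r = 0.90, rho = 0.89) than to Lep (r = 0.70, rho = 0.70), so r did not part the members by these labels. The weakest pair was Ppargc1a with Lep (r = 0.36, rho = 0.31, adjusted permutation p = 0.00458). Without the 2 mice farthest from the median of Ppargc1a this pair had r = 0.18 (adjusted permutation p = 0.139), so its r rests on those mice, while rho was 0.26 (adjusted permutation p = 0.0367). Without the 2 farthest mice on the x axis, Ucp1 and Cidea had r = 0.95, and Adipoq and Plin1 r = 0.95.

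Within runs 1 to 4 (19, 16, 29 and 14 mice) the r of Ucp1 with Cidea was 0.96, 0.95, 0.95 and 0.96, and that of Adipoq with Plin1 was 0.93, 0.90, 0.94 and 0.98. Ucp1 and Adipoq had r = 0.72, 0.64, 0.76 and 0.85 in the runs. In the 9 baseline mice alone, Ucp1 and Cidea had r = 0.96 (exact permutation p = 0.0002122) and Adipoq and Plin1 r = 0.98 (exact permutation p = 2.20e-05). Of the 28 pairs, the number with an adjusted p under 0.05 was 18 in run 1, 19 in run 2, 26 in run 3 and 28 in run 4.

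Elovl3 was less close to Ucp1 (r = 0.72, rho = 0.75) than Cidea was, and mice with high liver transcripts lay off the trend. Array 79 had the lowest Ucp1 of its group and the highest Elovl3. The Ucp1 deviations accounted for 52.5% of the variance of Elovl3 deviations, and the Ucp1 and liver list deviations together for 68.9%. For Cidea the same shares were 91.9% and 92.5%. With the liver list removed by regression, Ucp1 and Elovl3 had r = 0.82.

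**Figure D4:**
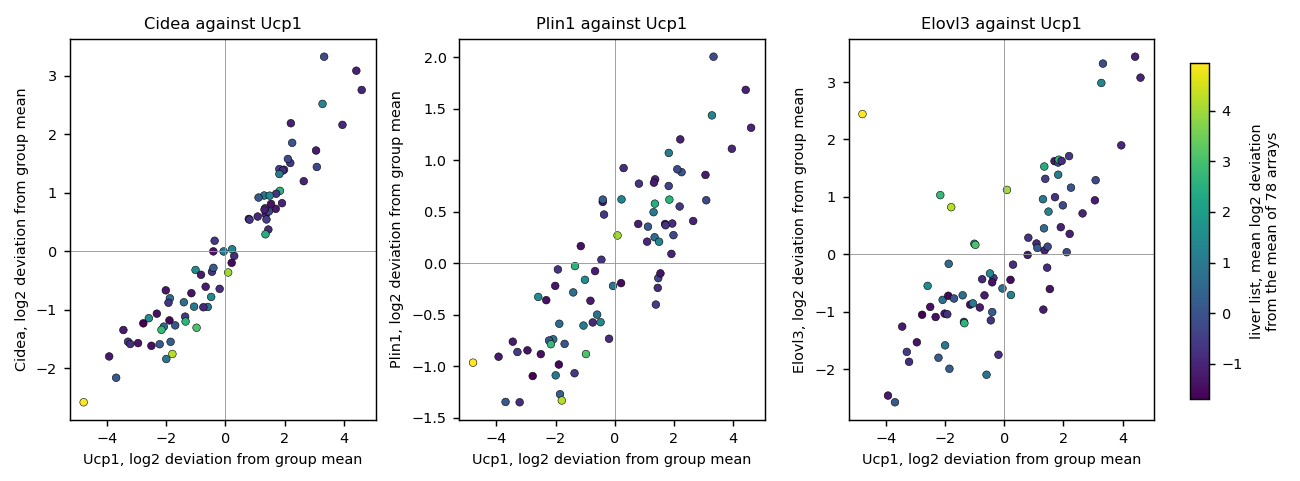
Deviation from the group mean of Cidea, Plin1 and Elovl3 (vertical axes, log2) against that of Ucp1 (horizontal axis, log2), with 1 point per mouse for 78 mice, coloured by the level of 8 liver genes. Cidea follows Ucp1 closely (r = 0.96), and the points of Elovl3 that lie above its trend at low Ucp1 have the highest liver levels.

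The second Ppargc1a probe set was less close to the other fat genes. It correlated with the one used at r = 0.74 and with Ucp1 at r = 0.28, against 0.58 for the one used. Its probes and those of the set used may cover different transcripts, which the files do not say.

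The 5 genes whose deviations were most like those of each member were taken over 78 mice and 18812 other genes. Nearest to Ucp1 were Gpd1, which makes glycerol 3-phosphate (r = 0.92), the proton channel gene Otop1 (0.91), the glycerol channel gene Aqp7 (0.90), Cox8b, a cytochrome oxidase subunit of brown fat and muscle (0.89), and the fatty acid binding protein gene Fabp4 (0.84). Nearest to Cidea were Otop1 (0.97), Gpd1 (0.96), Cox8b (0.96), Aqp7 (0.95) and Adig (0.92). Nearest to Adipoq were Fabp4 (0.94), the resistin gene Retn (0.94), Aqp7 (0.93), Tmem45b (0.93) and the lipogenic gene Thrsp (0.90).

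Plin1 was nearest to Aqp7 (0.98), Fabp4 (0.94), Thrsp (0.94), Gpd1 (0.93) and Tmem45b (0.93). Cidec was nearest to Plin4, a further droplet coat gene (0.91), Crat (0.91), the triglyceride lipase gene Pnpla2 (0.90), Fabp4 (0.89) and Cox8b (0.88). Lep was nearest to the amine oxidase gene Aoc3 (0.81), Pnpla3 (0.80), the thyrotropin receptor gene Tshr (0.79), Apol6 (0.78) and A530016L24Rik (0.78).

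Ppargc1a was nearest to the respiratory chain gene Cyc1 (0.85), Dgat1 (0.84), Rxrg (0.82), the acylcarnitine carrier gene Slc25a20 (0.82) and Dio2, which activates thyroid hormone in brown fat (0.82). Elovl3 was nearest to Ephx2 (0.89), the liver glycogen synthase gene Gys2 (0.85), Kng2 (0.85), Ehhadh (0.85) and Ppara (0.85). The number of genes with r over 0.5 was 523 for Ucp1 and 789 for Adipoq, or 2.78% and 4.19% of 18812.

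Lists of other adipocyte genes were counted by the same measure. Of 17 measured genes of the brown adipocyte list, 12 had r over 0.5 with Ucp1, with a median of 0.71, led by Otop1, Cox8b, Cox7a1 (0.82), Ebf2 (0.78) and Fabp3 (0.77). The lowest r were those of Prdm16 (0.20), Slc27a2 (0.19), Lhx8 (0.18) and Zic1 (0.07). Prdm16, Lhx8 and Zic1 encode transcription factors, as does Ebf2, and had pooled SDs of 0.096 to 0.107. Of 26 measured adipocyte genes, 21 had r over 0.5 with Adipoq, with a median of 0.83, led by Fabp4, Retn, Aqp7, Thrsp and Dgat2 (0.90). Cd36, a fatty acid carrier gene that the lung itself expresses, had r = -0.38 with Adipoq, and Scd1 0.49.

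Relatives of the members differed in how closely they followed Ucp1. Elovl6 (0.80 with Ucp1), Ucp3 (0.76), Plin4 (0.72), Plin5 (0.71) and Ppargc1b (0.60) had r over 0.5, 5 of 13 relatives measured. Plin2 had 0.48, Elovl4 0.33 and Elovl7 0.03. Elovl5, Elovl1 and Elovl2, further enzymes of chain elongation, had -0.31, -0.29 and -0.29, Cideb -0.11 and Plin3 0.23. Of 8 partners of Ppargc1a, 3 had r over 0.5 with it, namely Perm1 (0.76), Ppargc1b (0.74) and Esrra (0.63), while Tfam had 0.0037 and Nrf1 -0.14. Of 18812 other genes, 4.28% had r over 0.5 with Ppargc1a. None of the 4 adipokine receptor genes (Lepr, Adipor1, Adipor2 and Cdh13) had r over 0.5 with Adipoq. The highest were Adipor2 (0.48) and Cdh13 (0.44).

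Between deprived and sleeping mice over all hours, none of the 17 brown adipocyte genes and none of the 26 adipocyte genes was called in limma, with median differences of -0.12 and -0.03 beside -0.0003857 over all genes. The smallest adjusted p in limma were 0.0885 for Acot11 (-0.30) and 0.0125 for Gpam (0.09). At 3 h, where 3.76% of all probe sets were called higher, 1 of the 8 partners of Ppargc1a was called, the deacetylase gene Sirt1 (0.30 higher, limma adjusted p = 0.00127), and 1 of the 4 receptor genes, the leptin receptor gene Lepr (0.37 higher, 0.00127). The ligand of that receptor, Lep, was 0.45 lower in mean at that hour, without a call (limma adjusted p = 0.115).

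The 17 gene lists were set against Ucp1, Elovl3 and Adipoq in the same way, with 51 relations in all. They cover fat genes and their relatives, lung epithelium, alveolar macrophages, blood and tissues inside or beside the lung. Whether mesothelium, cardiac muscle and cartilage transcripts came from the lung or from beside it was not tested. Adipoq went with the mesothelium list (r = 0.75, rho = 0.76, adjusted permutation p = 2.83e-05), the cardiac muscle list (r = 0.66, rho = 0.68) and the cartilage list (r = 0.55, rho = 0.58), at the same adjusted permutation p. Without the 2 mice farthest from the median these r were 0.75, 0.65 and 0.54. Its r was 0.49 with skeletal muscle, 0.54 with lymph node and 0.45 with oesophagus genes, each with an adjusted permutation p of 0.000255 or less. Ucp1 had r = 0.65 with cartilage, 0.56 with cardiac muscle and 0.55 with mesothelium.

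No relation past an adjusted p of 0.05 was seen for Ucp1 with the thymus (r = 0.14, adjusted permutation p = 0.275), liver (-0.19, 0.16) and lung epithelium lists (0.14, 0.275). Elovl3 had r = 0.26 with the liver list (adjusted permutation p = 0.051), of the other sign than Ucp1. Within runs 1 to 4, the r of Adipoq was 0.78, 0.65, 0.74 and 0.88 with mesothelium and 0.82, 0.39, 0.56 and 0.92 with cardiac muscle. With lymph node genes it was 0.44, -0.23, 0.36 and 0.94, and with oesophagus genes 0.00, 0.45, 0.34 and 0.71. With skeletal muscle genes it was 0.13, 0.37, 0.39 and 0.80, and with cartilage genes 0.41, 0.59, 0.31 and 0.77. The r of Ucp1 with mesothelium was 0.41, 0.28, 0.53 and 0.78. These relations were uneven between runs, and no test was made within runs. Of the 6 lymph node genes, 2 had r over 0.5 with Adipoq (median 0.16), from -0.08 for Fcer2a to 0.82 for Cxcl13. Over all hours 4 of 6, namely Cr2, Fcer2a, Ccr7 and Ms4a1, were called lower in deprived mice, where 2.89% of all probe sets were. Cxcl13 and Glycam1 were not called (limma adjusted p = 0.761 and 0.189). 

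**Figure D5:**
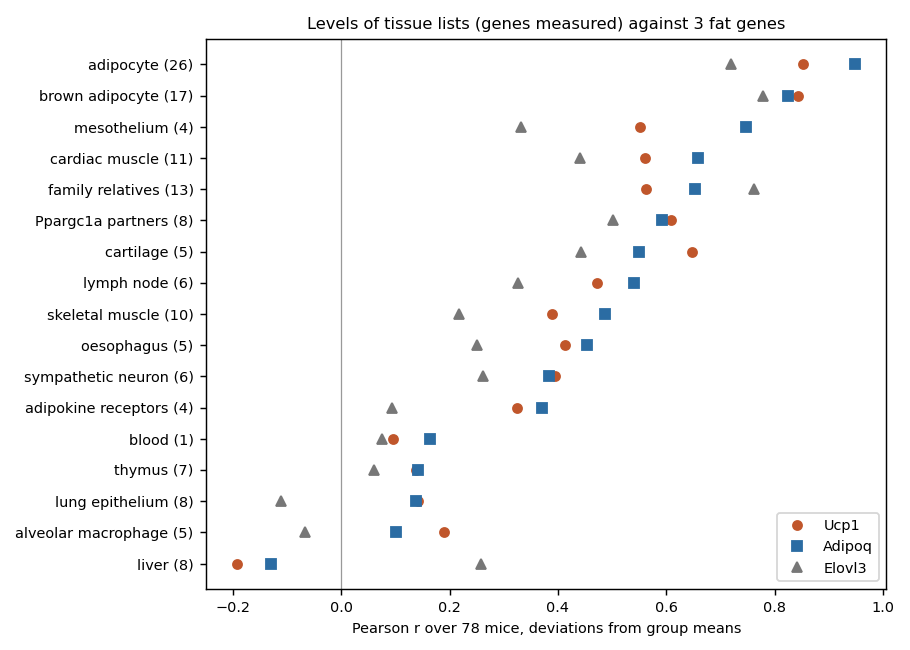
Pearson r over 78 mice (horizontal axis) between deviations of Ucp1, Adipoq and Elovl3 and those of the mean level of 17 gene lists, with the number of measured genes in brackets. For Ucp1 and Adipoq the adipocyte lists lie farthest right, and mesothelium and cardiac muscle follow for Adipoq (0.75 and 0.66). For Elovl3 the brown adipocyte list (0.78) and family relatives (0.76) lie right of the adipocyte list (0.72). Lung epithelium lies near 0 (0.14 for both Ucp1 and Adipoq).

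With a fat gene as a covariate, the calls over all hours changed little in number. Over all hours these covariates themselves differed by only -0.15 (Adipoq), -0.17 (Ucp1) and -0.18 (Plin1) between deprived and sleeping mice. No such fit was made at single hours, so the counts do not cover the 3 h comparison. Without a covariate 1987 probe sets were called over all hours. With Adipoq 2078 were called, of which 1897 were called without it, with Ucp1 2101 (1974 shared) and with Plin1 2006 (1861 shared).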

How the data were processed

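RNA from the lungs of 78 mice was measured on as many Affymetrix Mouse Gene 1.0 ST arrays. The authors deposited log2 intensities, background-corrected, quantile-normalized and summarised by RMA. RMA equalises the distributions of arrays, so a value is relative to the other transcripts of its array. The deposited table lacks the decimal point, which was put back behind the leading digit, or behind the next digit where the leading digit is 1. Of 35556 probe sets, 21218 have 1 gene symbol, 1881 several and 12457 none in the platform annotation. A gene is its single-symbol probe set with the highest mean.

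Group means were compared with limma 3.58.1 in R 4.3.3, with Benjamini-Hochberg adjustment over all probe sets and a threshold of 0.01. The comparison over all hours fitted sleep state alone in 69 mice, and the others fitted 9 group means. For the spread over 5 groups a gene had to pass the Brown-Forsythe test at 0.01, unadjusted, together with Bartlett's test at an adjusted 0.01. Correlations used deviations from the 9 group means. The scripts were tested on simulated data. Alternatives were blocks of array-number runs, leaving out arrays, a filter of mean log2 intensity 6, array weights, other variance models, scalings and ranks. Those with liver or fat genes as covariates, without arrays 79 and 80, and within each run at each hour, were chosen after seeing the data.

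The members and lists were chosen with earlier results of these data known. The genes named are the members, for each the 5 genes with the highest r, for each list up to 3 genes with the smallest adjusted p, and for the adipocyte lists the 5 with the highest r with Ucp1 and with Adipoq. Other list genes, relatives, partners and receptors were named after their values were seen.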

Additional observations from a re-analysis of the deposited data

Results flagged for a closer look

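In 4 of the 72 groups tested (8 genes in 9 groups), 1 mouse stood apart from the rest of its group, where chance alone gives about 1 in 20. Among mice deprived for 3 h, array 68 had an Elovl3 level of 8.69 (next 6.19) and a Ppargc1a level of 8.57 (next 8.14). Among mice deprived for 6 h, array 74 had a Ppargc1a level of 9.13 (next 8.51). Among mice that slept 9 h, array 28 had a Cidec level of 10.08 (next 9.43). Arrays 68, 74 and 28 also had the highest Ucp1 levels of their groups, at 11.39, 11.31 and 10.56.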

How the results depend on the processing

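Over all hours 1 member (Lep) was called without the 16 arrays and 0 otherwise. At single hours leaving out 1 array gave 0 to 2 members called (Elovl3 and Ppargc1a without array 68). Over 9 groups 2 members were called, 1 with arrays centred on the median or with liver as a covariate, and 1 to 3 leaving out 1 array (1 in 46 of 78 fits). A block of runs was not used there, since early and late groups share no run. The variance tests gave 0 to 1 leaving out 1 array. Pairs of members with an adjusted permutation p under 0.05 numbered 28, but 18 in run 1 and 18 at baseline, where Ppargc1a with Lep had r = -0.15 in run 1. With a block of 5 runs the differences over all hours changed sign for Ucp1 (0.80), Cidea (0.29), Elovl3 (0.24), Ppargc1a (0.0059), Adipoq (0.032) and Plin1 (0.093), as did Ppargc1a at 6 h (0.012). Array weights turned Ucp1 (0.011) and Elovl3 (0.046) over all hours, and Adipoq (0.063) and Cidec (0.15) at 9 h. Normal scores turned Ucp1 (-0.010) and Cidea (-0.086) at 9 h, and leaving out the 16 arrays turned Adipoq (0.042) and Cidec (0.12) at 9 h. Leaving out 1 array, the differences ran from -0.030 to 0.31 (Cidea, 9 h), -0.16 to 0.11 (Adipoq, 9 h), -0.23 to 0.037 (Cidec, 3 h) and -0.072 to 0.094 (Cidec, 9 h). No turned difference was called, and the cause was not tested. Over all probe sets, 1987 were called over all hours, 3069 without the 16 arrays and 3210 with array weights. At 3, 6, 9 and 12 h 2172, 21, 912 and 29 were called, against 2682, 894, 2125 and 157 without the 16 arrays, 3296, 36, 1927 and 410 with array weights and 1584, 0, 111 and 0 with normal scores. Blocks of 4 and 5 runs gave 74 and 80 at 6 h, and a block of 5 runs 1125 at 3 h. The filter gave 12 at 6 h and left out Lep, centring gave 14 at 12 h, and the liver covariate 1392 at 3 h and 52 at 6 h. No paired analysis was possible because each mouse gave 1 array in 1 group.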
